A study of Mus musculus with 6 samples.

Results

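The genes described here are 10 members of the NRF2 and glutathione systems, *Nfe2l2*, *Nqo1*, *Hmox1*, *Gclc*, *Gclm*, *Gss*, *Txnrd1*, *Srxn1*, *Slc7a11* and *Gstm1*. They were chosen by name, with earlier results of these data known, and all 10 were found among the 24421 genes listed in the deposited tables. Astrocytes were isolated with ACSA-2 MicroBeads, after removal of CD11b+ cells, from the hippocampus of adult male *Siglech* dtr/dtr mice on a C57BL/6 background, in which the diphtheria toxin (DT) receptor is expressed from the *Siglech* locus of microglia. The PBS group received PBS and the DT group received DT at 50 μg/kg, both intraperitoneally, and RNA was taken 2 days later. Each group had 3 libraries from independent experiments, each from a pool of 2 mice. Mice of both groups carried the same alleles, and DT was given only to mice with the receptor, so an effect of the toxin and an effect of microglial loss cannot be told apart here.

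NRF2, the transcription factor encoded by *Nfe2l2*, is held at a low level by KEAP1, which brings it to a CUL3 ubiquitin ligase. When oxidants or electrophiles modify KEAP1, NRF2 accumulates, pairs with a small MAF protein and binds antioxidant response elements of genes for glutathione synthesis, thioredoxin reduction, quinone reduction and heme breakdown. Much of this control acts on the protein, so the level of *Nfe2l2* RNA does not measure NRF2 activity. In the brain, astrocytes are known for a strong NRF2 response and for the glutathione and precursors that they supply to neurons.

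In the DT-treated group, 2 of the 10 genes were higher and 8 did not pass the test. *Hmox1*, which encodes the inducible heme oxygenase, rose 2.12-fold, and *Txnrd1*, which encodes cytosolic thioredoxin reductase, rose 1.35-fold. *Nfe2l2* itself and the genes for glutathione synthesis (*Gclc*, *Gclm* and *Gss*) had log2 fold changes between -0.13 and 0.06. Among 15137 genes tested, 0.713% passed the threshold, 0.555% as higher and 0.159% as lower, against 2 and 0 of the 10 members. The test was limma on log2(CPM + 0.1) for genes averaging 0.5 CPM (reads scaled to library size) or more, two-sided, with Benjamini-Hochberg adjustment over all genes tested and a threshold of 0.05. Both calls were made close to that threshold, and they changed when a library was left out. *Txnrd1* lost its call in each of the 6 fits without 1 library, and *Hmox1* in 5 of 6.

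The antioxidant response element is the sequence through which NRF2 reaches its targets, so the promoters of these genes were searched for its core letters. RefSeq promoters (GRCm38.p6, from 250 bases before to 50 bases after a transcription start) were matched for 8 of the 10 genes, all but *Hmox1* and *Gclc*, and were searched on both strands for the letters TGACNNNGC and TGAGNNNGC, which cannot match at the same place on the same strand. In 5 of these 8 genes at least 1 promoter held a match, and in 30.8% of all 27025 genes with a promoter. By promoter, 12.4% of 32851 windows held TGACNNNGC and 17.6% held TGAGNNNGC, beside 4 and 2 of the 11 promoters of the 8 genes. The matches that lay before the start and outside annotated exons are given with up to 20 bases on each side, on the strand of the gene, with the match in capitals. A match in capitals that starts with GC is the element read from the other strand.
*Txnrd1*, chr10:82859094-82859142, plus strand, beginning 92 bases before a start inside the annotated gene: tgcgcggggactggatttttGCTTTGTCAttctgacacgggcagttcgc
*Srxn1*, chr2:152105459-152105507, plus strand, beginning 45 bases before the start: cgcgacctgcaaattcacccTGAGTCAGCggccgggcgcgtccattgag
*Srxn1*, chr2:152105346-152105394, plus strand, beginning 158 bases before the start: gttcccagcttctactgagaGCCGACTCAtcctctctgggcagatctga
*Gclm*, chr3:122245403-122245451, plus strand, beginning 134 bases before the start: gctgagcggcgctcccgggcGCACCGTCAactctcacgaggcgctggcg
*Slc7a11*, chr3:50443682-50443730, minus strand, beginning 97 bases before the start: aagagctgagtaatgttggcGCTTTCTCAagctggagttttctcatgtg
*Nfe2l2*, chr2:75704875-75704913, minus strand, beginning 240 bases before the start: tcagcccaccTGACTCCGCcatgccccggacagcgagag
*Srxn1* alone had matches at 2 places before its start, and it had 1 further match after the start that is not printed. Of the genes that passed the test only *Txnrd1* could be searched, and both *Txnrd1* and genes that did not pass are among those with a match. The *Txnrd1* promoter at the start of the annotated gene (chr10:82833701-82834000) held no match, and neither did the one at chr10:82860091-82860390. A match of these letters does not show that a factor binds there.

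Recovered reads per library ranged from 21704891 to 32933975. The 15 astrocyte marker genes, among them *Aqp4*, *Slc1a3* and *Aldh1l1*, summed to between 35993 and 38443 TPM (a level scaled for transcript length and library size) in the 6 libraries, with log2 fold changes from -0.25 to 0.60. The 15 microglia markers summed to between 240 and 290 TPM after PBS and between 139 and 152 TPM after DT. Their log2 fold changes ran from -4.08 to -0.04, with a median of -1.39. In these bulk samples, fewer cells of a type and less RNA per cell cannot be told apart.

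Across the 6 libraries the levels of the 10 genes covered a wide range, in this order by mean TPM. *Gstm1*, which encodes a glutathione S-transferase of the mu class, was at 1485 TPM, at percentile 99.7 of the genes tested, and *Slc7a11*, which encodes the cystine-importing subunit of the xc- exchanger, followed at 245 TPM and percentile 96.4. *Nfe2l2* was at 95.2 TPM. Below it came *Txnrd1* at 60.3 TPM, *Gclc* at 59.7 TPM and *Gclm* at 57.2 TPM, whose ranges over the 6 libraries overlapped. *Srxn1*, the gene for sulfiredoxin, stood apart at 31.5 TPM. The lowest were *Gss* at 21.1 TPM, *Hmox1* at 18.2 TPM and *Nqo1* at 17.6 TPM, and neighbours in this group overlapped as well. Of the 9 pairs of neighbours, 5 did not overlap. The places of *Hmox1* and *Txnrd1* differed between the groups. *Hmox1* was the lowest of the 10 genes after PBS, at 11.6 ± 2.45 TPM (SD, n = 3), and lay above *Gss* and *Nqo1* after DT, at 24.7 ± 2.04 TPM (SD, n = 3). *Txnrd1* lay below *Gclc* in each PBS library, at 47.8 to 53.0 TPM beside 57.0 to 59.4 TPM, and above it in each DT library, at 67.3 to 72.3 TPM beside 59.8 to 63.6 TPM. *Gclc* and *Gclm* overlapped within both groups.

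**Figure D1:**
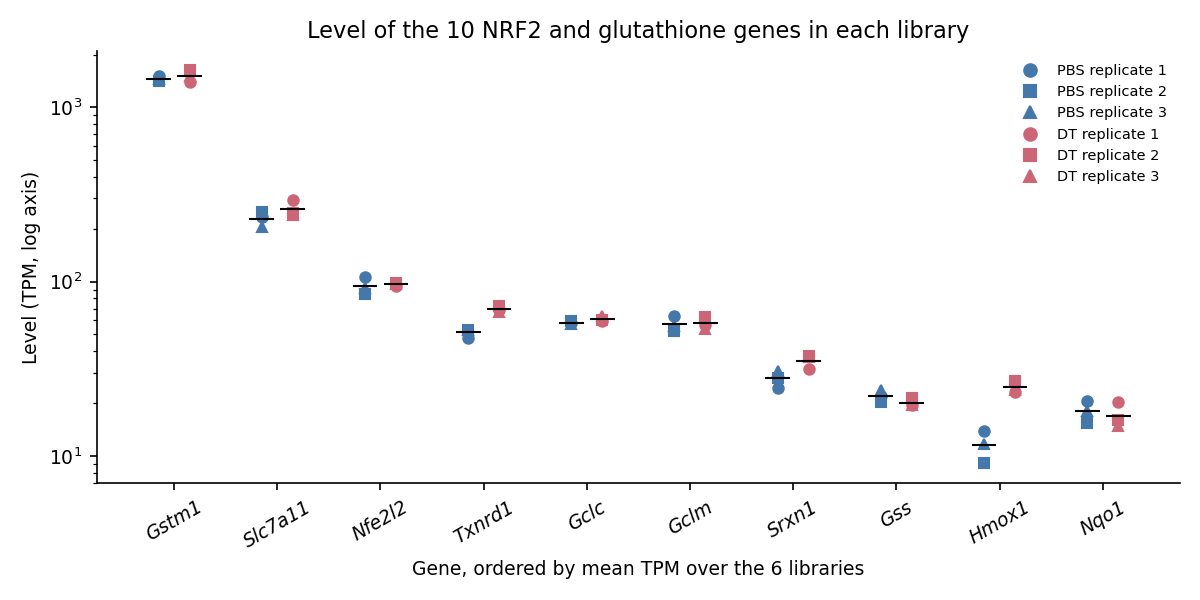
Level of each gene in TPM on a log axis, for 3 PBS libraries (blue) and 3 DT libraries (red), with genes ordered by their mean over the 6 libraries; symbols mark the replicate number and bars the group mean. *Gstm1* lies above 1398 TPM in every library, and *Hmox1* is the gene whose groups lie farthest apart on this log axis, at 9.06 to 13.9 TPM after PBS and 23.3 to 27.1 TPM after DT.

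*Nfe2l2* lies on chromosome 2 (mm10, GENCODE M21, minus strand, 75675513 to 75704641). It was at 90.7, 70.1 and 77.1 CPM in PBS replicates 1 to 3 and at 80.8, 80.5 and 80.6 CPM in DT replicates 1 to 3. The 3 DT libraries were nearly equal and lay inside the range of the PBS libraries. The log2 fold change was 0.03 (standard error 0.09, 95% interval -0.18 to 0.24, adjusted p = 0.941 from limma), which leaves room for a change from 0.883-fold to 1.18-fold. *Keap1*, which is named here for its role and after its values had been seen, was at 43.4, 30.1 and 28.9 TPM after PBS and at 48.6, 29.8 and 51.6 TPM after DT. PBS replicate 1 and DT replicates 1 and 3 were high for *Keap1* and the other libraries low, so the groups overlapped, and the log2 fold change was 0.27 (adjusted p = 0.718 from limma).

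*Hmox1*, on chromosome 8 (plus strand, 75093621 to 75100589), encodes the enzyme that opens heme to biliverdin, carbon monoxide and iron. It was at 7.69, 4.82 and 6.34 CPM in the PBS libraries and at 12.7, 14.2 and 12.7 CPM in the DT libraries, from 138 to 437 reads per library. The groups did not overlap, and the DT libraries were the higher ones. Group means were 6.28 ± 1.43 and 13.2 ± 0.87 CPM (SD, n = 3 each), and the gene rose by 1.08 on the log2 scale (standard error 0.18, 95% interval 0.68 to 1.49, adjusted p = 0.0379 from limma). Its adjusted p-value ranged from 1.30e-05 to 0.206 over 17 alternatives, of which 9 kept the call. The call was lost without the filter on low values (adjusted p = 0.0654 from limma) and without the variance trend (adjusted p = 0.120). It was also lost with a block for the replicate number (adjusted p = 0.0625). Without PBS replicate 1 it was kept (adjusted p = 0.0301), and without PBS replicate 2 or 3 or DT replicate 1, 2 or 3 it was lost, with log2 fold changes from 0.91 to 1.11.

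The other genes of heme breakdown did not pass the test. *Hmox2*, the constitutive heme oxygenase, was at 104 ± 1.39 TPM in the PBS group and 108 ± 3.47 TPM in the DT group (SD, n = 3 each). *Hmox1* therefore made up 12%, 7.94% and 10.2% of the summed TPM of both oxygenases in the PBS libraries and 17.6%, 20.7% and 17.7% in the DT libraries. The log2 fold changes of *Blvra* and *Blvrb*, which encode biliverdin reductases, were 0.23 (adjusted p = 0.672 from limma) and -0.11 (adjusted p = 0.834 from limma). *Hmox2* and *Blvrb* were named after their values had been seen.

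Macrophages also express *Hmox1*, and markers of border-associated macrophages moved with it. Of the 11 genes on that list, 9 were tested, 9 had a positive log2 fold change and 3 passed the test as higher. By the same test, 0.555% of all genes tested passed as higher and 0.159% as lower, and 48.7% had a positive log2 fold change. The list summed to 28.6, 24.5 and 39.6 TPM in PBS replicates 1 to 3 and to 81.6, 93.9 and 72.4 TPM in DT replicates 1 to 3. *Mrc1*, the mannose receptor gene, was at 8.22 ± 1.65 TPM in the PBS group and 23.02 ± 0.79 TPM in the DT group (SD, n = 3 each), and none of the 11 genes was without a read in all libraries. Microglia can express *Hmox1* too, and their list moved the other way, with 9 of 15 genes lower by the same test and *Siglech* without a read in the DT libraries. The part of macrophages in the rise of *Hmox1* was not tested. Of the choroid plexus, ependymal, endothelial and oligodendrocyte precursor markers, 0 passed the adjusted threshold by limma or edgeR, while DESeq2 called 1 ependymal marker higher and 2 endothelial and 2 oligodendrocyte precursor markers lower. Choroid plexus markers summed to between 108 and 2045 TPM after PBS and between 1269 and 3456 TPM after DT, and the 9 ependymal markers summed to between 677 and 852 TPM and between 914 and 1529 TPM. At an unadjusted p under 0.05, 8 of 10 choroid plexus and 6 of 9 ependymal markers were higher. Among all genes tested, 5.91% were higher and 4.51% lower at that threshold. Endothelial markers were negative in 10 of 10 genes, with a median log2 fold change of -0.40 and 5 genes lower at an unadjusted p under 0.05, and summed to between 806 and 1309 TPM after PBS and between 688 and 839 TPM after DT. The 7 oligodendrocyte precursor markers summed to between 270 and 308 TPM after PBS and between 234 and 258 TPM after DT, with 3 genes lower at an unadjusted p under 0.05. The part of these cells in the results was not tested.

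**Figure D2:**
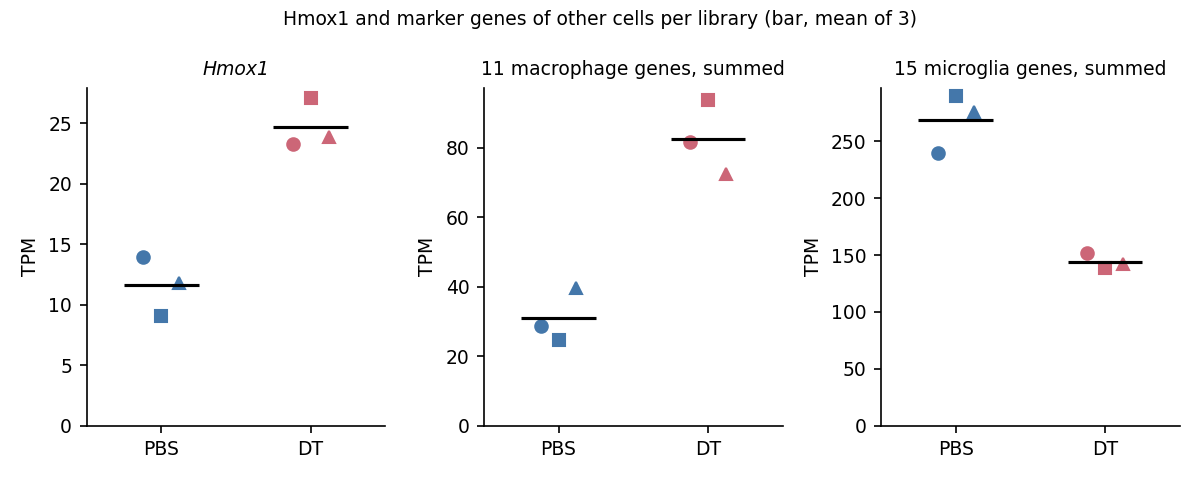
*Hmox1* (left), the sum of 11 border-associated macrophage genes (middle) and the sum of 15 microglia genes (right) in TPM in each library, with blue for PBS, red for DT, symbols for the replicate number and bars for group means. *Hmox1* and the macrophage sum are higher in the 3 DT libraries than in the 3 PBS libraries, and the microglia sum is lower.

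*Txnrd1*, on chromosome 10 (plus strand, 82833951 to 82897712), encodes the selenoenzyme that keeps thioredoxin reduced with NADPH. It was at 56.3, 60.8 and 62.1 CPM in the PBS libraries and at 81.1, 82.5 and 77.8 CPM in the DT libraries, from 1222 to 2540 reads per library. The groups did not overlap, and the gap between them was wider than the range within either. Group means were 59.7 ± 3.08 and 80.5 ± 2.42 CPM (SD, n = 3 each), and the gene rose by 0.43 on the log2 scale (standard error 0.07, 95% interval 0.28 to 0.58, adjusted p = 0.0306 from limma). Its adjusted p-value ranged from 6.59e-05 to 0.175 over 17 alternatives, of which 10 kept the call. It was lost without the variance trend (adjusted p = 0.139). In the 6 fits that each left out 1 library (PBS replicate 1, 2 or 3, or DT replicate 1, 2 or 3) the log2 fold change stayed between 0.39 and 0.46 and the call was lost, with adjusted p-values from 0.0546 to 0.175.

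*Srxn1*, on chromosome 2 (plus strand, 152105516 to 152111376), encodes sulfiredoxin, which restores hyperoxidised peroxiredoxins. It was at 24.0, 26.6 and 29.6 CPM in the PBS libraries and at 30.8, 34.997 and 34.8 CPM in the DT libraries. The DT libraries again lay above the PBS libraries, by a small gap between PBS replicate 3 and DT replicate 1. The log2 fold change was 0.33 (standard error 0.10, 95% interval 0.09 to 0.56), which passed the threshold before adjustment and not after it (adjusted p = 0.323 from limma). It passed in 0 of 17 alternatives, where the adjusted p from limma or the other tools ranged from 0.152 to 0.613.

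With *Hmox1*, *Txnrd1* and *Srxn1*, 3 of the 10 members were higher in all DT than in all PBS libraries, and 0 were lower in all of them. Among all genes tested, 8.75% were separated upward and 7.57% downward. At an unadjusted p-value under 0.05, 3 members were higher and 0 lower, against 5.91% and 4.51% of all genes tested.

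**Figure D3:**
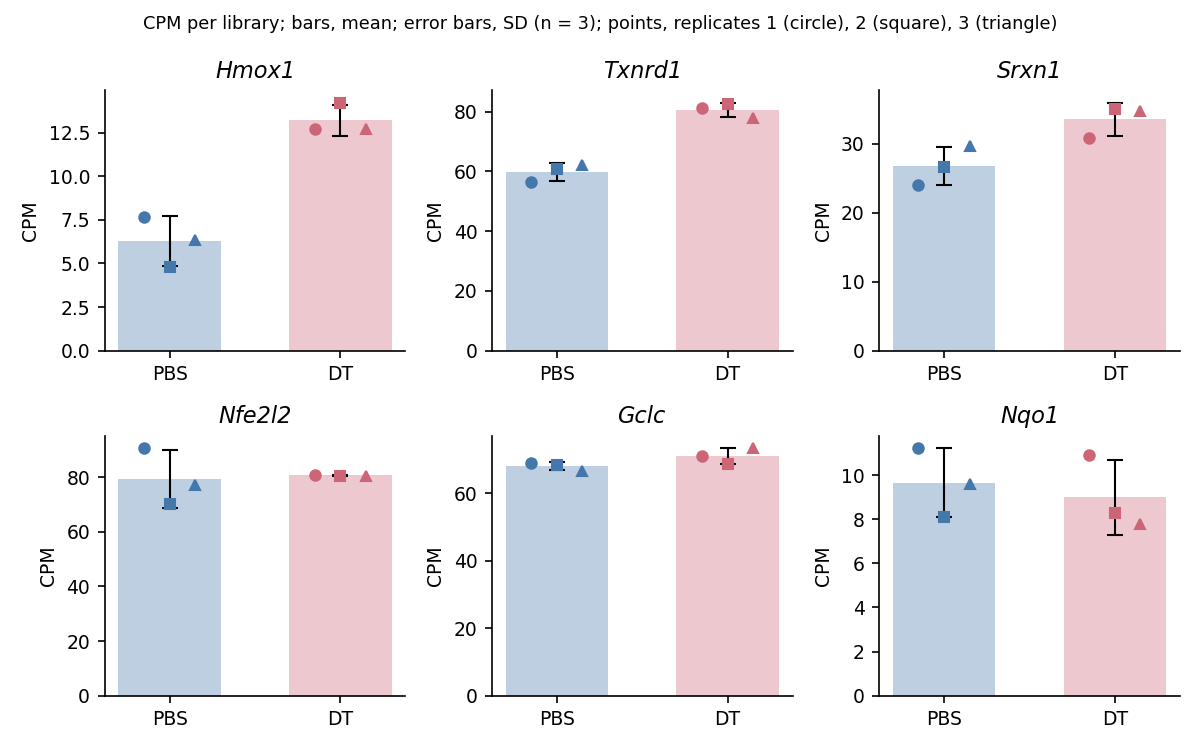
CPM per library of *Hmox1*, *Txnrd1* and *Srxn1* (top) and of *Nfe2l2*, *Gclc* and *Nqo1* (bottom) in the PBS (blue) and DT (red) groups; bars are means, error bars SD (n = 3) and symbols single libraries. The groups are apart in the top row, with *Hmox1* at 4.82 to 7.69 CPM after PBS and 12.7 to 14.2 CPM after DT, and they overlap in the bottom row.

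*Nqo1*, on chromosome 8 (minus strand, 107388225 to 107403206), encodes a quinone reductase and is commonly read as a marker of NRF2 activity. It was at 11.2, 8.11 and 9.60 CPM in the PBS libraries and at 10.9, 8.29 and 7.76 CPM in the DT libraries. Replicate 1 was highest in both groups, and the groups overlapped. The log2 fold change was -0.10 (95% interval -0.51 to 0.30, adjusted p = 0.881 from limma), with 178 to 269 reads per library. The interval comes from the spread between libraries, and a change between 0.702-fold and 1.23-fold would lie within it.

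Import of cystine supplies the cysteine for glutathione. *Slc7a11*, on chromosome 3 (minus strand, 49892526 to 50443614), was at 758, 772 and 643 CPM in the PBS libraries and at 934, 758 and 748 CPM in the DT libraries. DT replicate 1 stood above the other libraries, which overlapped. The log2 fold change was 0.16 (standard error 0.10, 95% interval -0.07 to 0.40, adjusted p = 0.642 from limma). *Slc3a2*, which encodes the heavy chain of the same exchanger and was named after its values had been seen, was at a log2 fold change of 0.06 (adjusted p = 0.815 from limma).

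Glutathione is made in 2 steps, of which the first joins glutamate and cysteine and is carried out by glutamate-cysteine ligase, with a catalytic subunit from *Gclc* and a modifier subunit from *Gclm*. *Gclc*, on chromosome 9 (77754535 to 77794485), was at 69.0, 68.4 and 66.7 CPM in the PBS libraries and at 71.0, 68.6 and 73.4 CPM in the DT libraries, with a log2 fold change of 0.06 (95% interval -0.08 to 0.20, adjusted p = 0.780 from limma). *Gclm*, on chromosome 3 (122245557 to 122270732), was at 45.6, 36.1 and 39.4 CPM and at 40.5, 43.1 and 37.4 CPM, with a log2 fold change of 0.00 (95% interval -0.23 to 0.24, adjusted p = 0.993 from limma). For both subunits the groups overlapped. Exons of *Gclm* overlap those of *Gm6061* on the same strand, where reads cannot be assigned by strand, and those of *Gm17494* on the opposite strand, so its level is uncertain to that extent. Per transcript length the subunits were at similar levels, with *Gclc* at 0.916 to 1.15 times the TPM of *Gclm* in the PBS libraries and at 0.962 to 1.19 times in the DT libraries. *Gss*, on chromosome 2 (155563181 to 155592810), encodes glutathione synthetase, which adds glycine in the final step. It was at 15.1, 13.5 and 15.5 CPM in the PBS libraries and at 13.3, 14.0 and 12.8 CPM in the DT libraries. Its groups overlapped through PBS replicate 2 and DT replicate 2, and its log2 fold change was -0.13 (95% interval -0.38 to 0.11, adjusted p = 0.720 from limma). Exons of *Gss* overlap those of *Acss2*, *Gssos1* and *Gssos2* on the opposite strand. How the counting used strand was not given in the sources used here, although the mapping used it.

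*Gstm1*, on chromosome 3 (minus strand, 108012255 to 108017973), encodes an enzyme that joins glutathione to electrophiles. It was at 676, 618 and 644 CPM in the PBS libraries and at 626, 701 and 654 CPM in the DT libraries. The groups overlapped, and the log2 fold change was 0.03 (95% interval -0.12 to 0.18, adjusted p = 0.908 from limma). Its level is uncertain, because 23.1% of the 1240 windows of 50 bases in its longest coding transcript occur unchanged in transcripts of other genes, 124 of them in *Gstm3* and 215 in *Gstm2-ps1*. *Gstm3* was at 51.0 ± 1.16 TPM in the PBS group and 49.8 ± 0.74 TPM in the DT group (SD, n = 3 each). For *Gclm* and *Slc7a11* such windows made up 0.776% and 0.752%, and for the other 7 members 0.

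**Figure D4:**
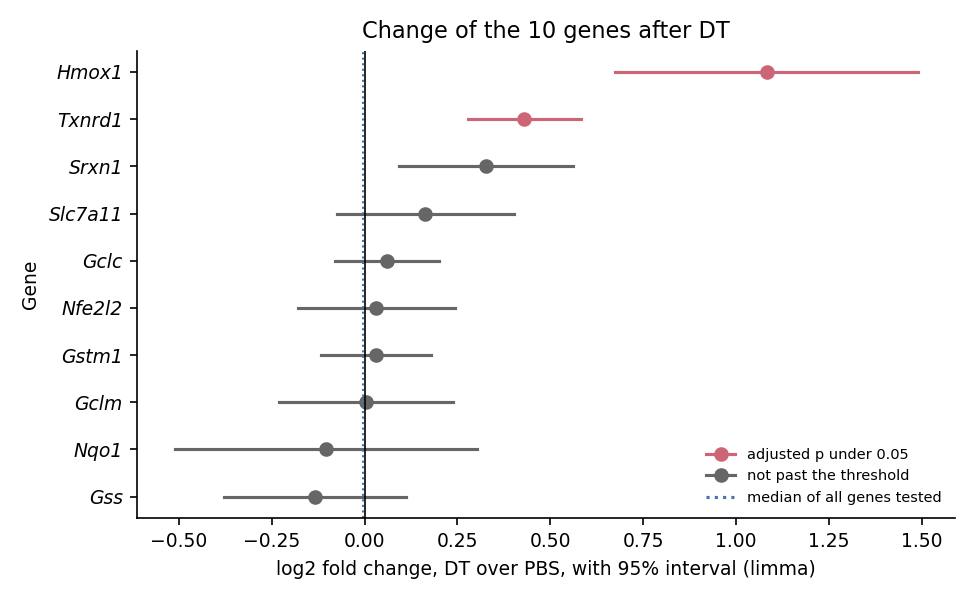
log2 fold change of DT over PBS for each of the 10 genes, with 95% intervals from limma on log2(CPM + 0.1); red marks an adjusted p under 0.05, and the dotted line is the median of all genes tested. *Hmox1* at 1.08 and *Txnrd1* at 0.43 passed the test, the interval of *Srxn1* lies above 0 without passing it after adjustment, and the other 7 intervals include 0.

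By sign alone, 8 of the 10 genes had a positive log2 fold change, against 48.7% of all genes tested, and the median of the 10 was 0.05 beside -0.01 for all genes tested. Of these 8, *Gclm*, *Gstm1* and *Nfe2l2* were near 0, at 0.00, 0.03 and 0.03. Their sign reversed in 5, 2 and 1 of 17 alternatives. The libraries of a group did not deviate evenly. PBS replicate 1 was the highest of its group for 6 of the 10 genes and PBS replicate 2 the lowest for 6, and DT replicate 2 was the highest for 6 and DT replicate 3 the lowest for 6. The median deviation of the 10 genes from their group means was 0.07 in PBS replicate 1 and -0.09 in PBS replicate 2 on the log2 scale, where the median over all genes tested was 0.01 and 0.00.

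The genes with the pattern most like that of *Hmox1*, by the root mean square difference of log2(CPM + 0.1) centred on each gene's mean over the 6 libraries, were *Tnfrsf1a* at 0.10, *Il1r1* at 0.12 and *Ggta1* at 0.15, out of 11791 genes averaging 5 CPM or more. *Tnfrsf1a* and *Il1r1* encode receptors for tumor necrosis factor and interleukin-1. Those most like *Txnrd1* were *Snx10* and *Vwa5a*, at 0.04 and 0.05, and *Plcd3*, at 0.05. These distances are descriptions over 6 libraries and say nothing of a shared control.

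The rest of the redox system was followed with 7 further lists of 117 genes, 110 of which were tested. Of these, 65 had a positive and 45 a negative log2 fold change, with a median of 0.02, and 0 passed the test by limma. Among all genes tested, 48.7% were positive and 0.713% passed. At an unadjusted p-value under 0.05, 5 were higher and 6 lower, against 5.91% and 4.51% of all genes tested. edgeR's quasi-likelihood test on the recovered reads called 0, and DESeq2 called 1 higher and 1 lower, where it called 2.15% of all genes. For 106 of the 110 genes the log2 fold change lay within 0.5 of 0, as it did for 13911 of all 15137 genes tested.

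The gene that DESeq2 called higher was *Gsr*, which encodes glutathione reductase, the NADPH-dependent enzyme that regenerates glutathione as thioredoxin reductase regenerates thioredoxin. It is described here after its values had been seen. It was at 42.5, 40.6 and 39.1 CPM in the PBS libraries and at 52.8, 53.5 and 49.0 CPM in the DT libraries, so the groups did not overlap. Its log2 fold change was 0.35 (95% interval 0.18 to 0.51), with an adjusted p of 0.107 from limma and of 0.0122 from DESeq2, and it passed in 1 of 17 alternatives. The gene that DESeq2 called lower was *Gstm5*, another glutathione S-transferase, with 1553 ± 99.5 TPM in the PBS group and 1307 ± 28.2 TPM in the DT group (SD, n = 3 each). It was at 474, 458 and 518 CPM in the PBS libraries and at 422, 393 and 394 CPM in the DT libraries, so its groups did not overlap either. Its log2 fold change was -0.26, with an adjusted p of 0.188 from limma and of 0.0398 from DESeq2, and it too passed in 1 of 17 alternatives.

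Among 18 regulators and partners of NRF2, 11 had a positive and 7 a negative log2 fold change, with a median of 0.01. *Maff*, which encodes a small MAF partner, had the highest, at 0.93 (95% interval 0.30 to 1.57, adjusted p = 0.291 from limma). Its TPM were 4.01, 3.81 and 8.23 after PBS and 8.59, 11.5 and 10.01 after DT. The DT libraries lay above the PBS libraries, but PBS replicate 3 was close to them. *Btrc*, which encodes a ubiquitin ligase adaptor, had the lowest value, at -0.18 (adjusted p = 0.776 from limma). *Sqstm1*, whose product p62 binds KEAP1, had the highest level of the list, 473 ± 20.3 TPM in the PBS group and 511 ± 12.5 TPM in the DT group (SD, n = 3 each).

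Among 16 other textbook NRF2 targets the median log2 fold change was 0.06, with 10 positive and 6 negative, and it was -0.01 without DT replicate 1 and 0.02 without PBS replicate 2. *Ugdh*, for UDP-glucose dehydrogenase, had the highest value at 0.29 (adjusted p = 0.404 from limma), and *Osgin1* the lowest at -0.74 (adjusted p = 0.672 from limma), with only 3 to 20 reads per library. *Fth1*, for the ferritin heavy chain, was the most abundant, at 719 ± 67.9 TPM in the PBS group and 849 ± 93.9 TPM in the DT group (SD, n = 3 each), with overlapping groups.

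Among 25 genes of glutathione use, recycling and turnover, 18 were positive and 7 negative, with a median of 0.08. *Ggct*, for gamma-glutamylcyclotransferase, had the highest value at 0.38 (adjusted p = 0.642 from limma), and *Glrx*, for glutaredoxin, the lowest at -0.35 (adjusted p = 0.422 from limma). *Gpx4*, whose product reduces lipid peroxides with glutathione, was the most abundant, at 379 ± 5.57 TPM in the PBS group and 407 ± 19.7 TPM in the DT group (SD, n = 3 each). Of the 20 further glutathione S-transferases tested, 10 were positive and 10 negative, with a median of 0.00 that was -0.06 without PBS replicate 3. *Gstm2* had the highest value at 0.45 (adjusted p = 0.734 from limma) and *Gsta3* the lowest at -0.60 (adjusted p = 0.513 from limma), both with at most 66 reads in any library, and *Gstm2* shares 11 windows with *Gstm1*.

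The thioredoxin list of 18 genes had a median of -0.04, with 8 positive and 10 negative. *Msrb1*, for a methionine sulfoxide reductase, had the highest value at 0.17 (adjusted p = 0.663 from limma) and *Sesn2*, for sestrin 2, the lowest at -0.28 (adjusted p = 0.637 from limma). *Prdx1*, for peroxiredoxin 1, a substrate of sulfiredoxin, was the most abundant, at 637 ± 27.8 TPM in the PBS group and 684 ± 24.0 TPM in the DT group (SD, n = 3 each).

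The 6 genes of superoxide dismutases, catalase and the remaining heme enzymes had a median of 0.09, which was 0.03 without PBS replicate 2. *Blvra* was highest in this list, *Cat*, for catalase, was lowest at -0.06 (adjusted p = 0.769 from limma), and *Sod1* was the most abundant, at 605 ± 45.4 TPM in the PBS group and 671 ± 19.8 TPM in the DT group (SD, n = 3 each). Among 7 tested genes of the methionine cycle, transsulfuration and cysteine use, the median was 0.01. *Cdo1*, for cysteine dioxygenase, which removes cysteine by oxidation, had the highest value at 0.56 (adjusted p = 0.197 from limma), with 11.8, 14.9 and 16.1 TPM after PBS and 22.1, 21.1 and 20.4 TPM after DT. *Cth*, for the enzyme that releases cysteine from cystathionine, had the lowest at -0.43 (adjusted p = 0.429 from limma). *Cbs*, for cystathionine beta-synthase, was the most abundant, at 182 ± 15.7 TPM in the PBS group and 183 ± 13.1 TPM in the DT group (SD, n = 3 each).

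**Figure D5:**
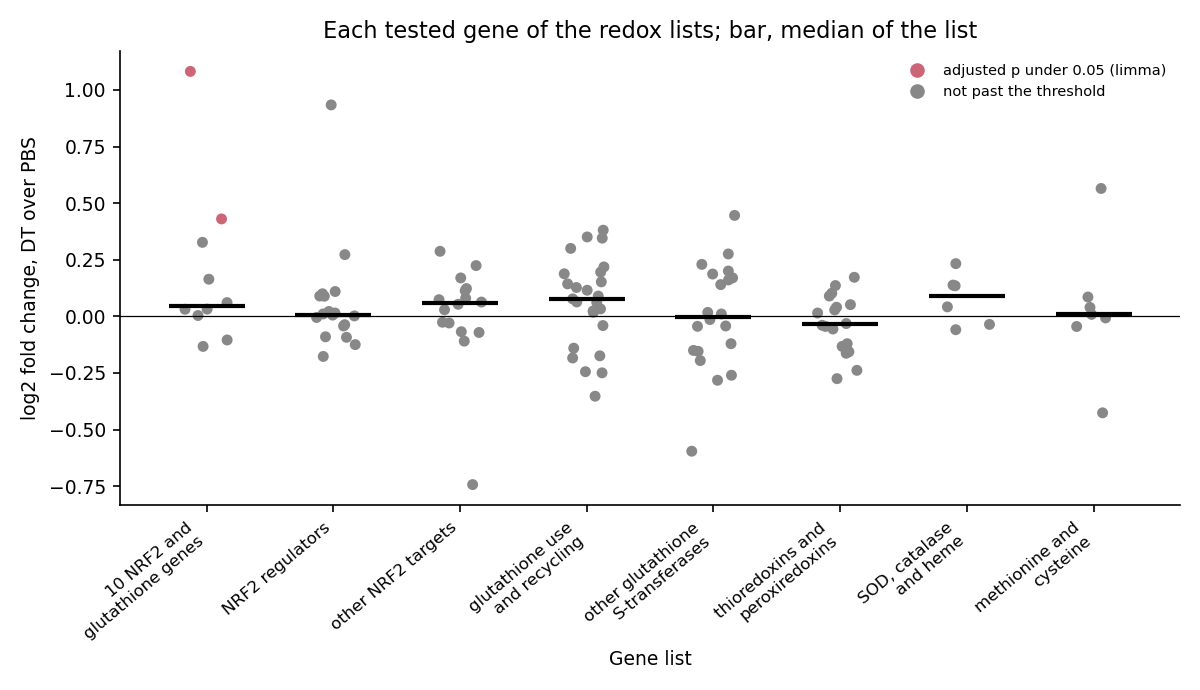
log2 fold change of DT over PBS (limma) for each tested gene of the 10 NRF2 and glutathione genes and of 7 further redox lists; red marks an adjusted p under 0.05 and black bars the list medians. *Hmox1* and *Txnrd1* are the 2 red points, the medians lie between -0.04 and 0.09, and *Maff* at 0.93 and *Osgin1* at -0.74 lie farthest out among the other genes.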

How the data were processed

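According to the study's methods and the labels, the authors trimmed reads with Trim Galore 0.5.0, mapped them to mm10 with HISAT2 2.1.0, removed rDNA reads with bedtools 2.25.0, quantified genes with StringTie 1.3.5 and used edgeR 3.24.3. The deposited expression signal is CPM on library sizes that the authors rescaled, so columns sum to between 980428 and 1026170, where the planned design had assumed plain CPM, and the planned test was kept. The deposited TPM sum to 997183 to 997651 per library. The authors' own p-values, q-values and fold changes were not used. All values (100%) of the CPM table lay within 0.1 of a whole number of reads, so reads were recovered.

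Here log2(CPM + 0.1) was compared across all 15137 genes averaging 0.5 CPM or more, with limma 3.58.1 (R 4.3.3) and a variance trend. edgeR 4.0.16 and DESeq2 1.42.0 ran on the recovered reads as alternatives. The fit was tested on simulated data. Depth was 21704891 to 32933975 recovered reads, and p-values measure the spread between these libraries, which are pools of mice from independent experiments. Other alternatives were pseudocounts of 0.5 and 1, TPM in place of CPM, no filter or an average of 2 CPM, quantile normalization, CPM rescaled to equal column sums, no variance trend, a replicate block and each library left out.

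The 10 genes, the lists, written from general knowledge, and the tests were chosen with earlier results of these data known. Named were the 10 members and, per list, genes past the threshold, those with the highest and lowest log2 fold change and the most abundant; for called members, the 3 genes most alike. Markers were named only to show other cells. Of the 117 listed redox genes, 7 were not tested: *Gsta1*, *Gsta2* and *Gstt4* had no read, *Mgst2*, *Gnmt* and *Bhmt* averaged under 0.5 CPM, and *Gstp3* was not analysed here.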

Additional observations from a re-analysis of the deposited data

How the results depend on the processing

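The log2 fold changes of *Hmox1*, *Txnrd1*, *Srxn1*, *Slc7a11*, *Gclc* and *Gss* kept their direction under all 17 alternatives, and those of members below the threshold never passed it. *Hmox1* lost its call without the filter on low values (adjusted p = 0.0654) and without the variance trend (adjusted p = 0.120), as did *Txnrd1* without the variance trend (adjusted p = 0.139). The number of members called was 1 without the filter, 0 without the variance trend and 0 to 1 when 1 library was left out, where it was 2 in the report. Over all genes, 35 were higher and 11 lower without the variance trend, 227 and 98 with DESeq2, and from 39 to 72 and from 9 to 20 in the fits without 1 library. These last fits have fewer samples; the other causes were not tested. The median of the 10 members ranged from 0.0319 to 0.114 in the fits without 1 library.

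Directions near 0 were not determined: in the fits without 1 library *Nfe2l2* ranged from -0.0526 to 0.133, *Nqo1* from -0.251 to 0.0105, *Gclm* from -0.0736 to 0.0945 and *Gstm1* from -0.0124 to 0.0685, and *Gclm* was at -0.0010 with quantile normalization. Of the medians of the other lists, recomputed under each alternative, 298 stayed within the spread between libraries and 8 moved by more. These were the textbook targets, the glutathione S-transferases and the superoxide dismutase, catalase and heme list, given in the report, and the markers of microglia (-1.06 with a pseudocount of 1, -1.79 without PBS replicate 1 and -1.13 without DT replicate 1), border-associated macrophages (0.82 with a pseudocount of 1) and oligodendrocyte precursors (-0.13 without DT replicate 1).

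Deviations of same-numbered libraries correlated at 0.115, 0.0105 and 0.118. Replicates 1 and 3 correlated best with their own numbers, and PBS replicate 2 correlated about equally with DT replicate 1 (0.0107) and DT replicate 2. The correlations therefore do not settle whether the numbers mark pairs. The main test did not take them as pairs, and the replicate block is given as an alternative. With the replicate block, 1 member was called, *Txnrd1* (adjusted p = 0.0495) and not *Hmox1* (adjusted p = 0.0625), and 79 genes were higher and 30 lower.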
